A study of Mus musculus with 240 samples.

Results

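The central nucleus of the amygdala (CeA) was compared with the prelimbic cortex (PrL) in the same mice, across the 8 inbred founder strains of the Collaborative Cross. Every CeA library and every PrL library with normalized values was taken, which gave 96 libraries (48 of each region) of the 143 libraries with such values. Each of the 48 mice gave 1 library of each region. The strains were C57BL/6J (B6), NZO/HILtJ (NZO), A/J (AJ), 129S1/SvImJ (S129), NOD/ShiLtJ (NOD), WSB/EiJ (WSB), PWK/PhJ (PWK) and CAST/EiJ (CAST), with 3 females and 3 males each. The public record spells NOD/ShiLtJ as NOD/LtJ. All animals were naive, untreated and of unmodified genotype, and were 8 weeks old by the description of the design in the public record (the study's methods state an older age). Tissue was punched by hand from slices of frozen brain, with a brain atlas as the guide. The PrL was taken along the midline of the most anterior slice, and the CeA with a finer needle from a slice further back. Stranded poly(A) libraries were sequenced in 3 trays, and the CeA and PrL of a mouse were always in different trays.

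The CeA is a nucleus of the subpallium. Like the striatum beside it, it is built mainly of GABAergic projection neurons, many of which carry neuropeptides, and it is known as the main output station of the amygdala in fear, feeding and drug seeking. The PrL is a field of medial prefrontal cortex, built of layers of glutamatergic pyramidal neurons of pallial origin with GABAergic interneurons among them. A bulk library sums all cells of a punch, so more cells of a type and more RNA per cell cannot be told apart in any result given here.

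CeA libraries held 20317541 to 33951616 counts (median 24855569) and PrL libraries 14942820 to 30662185 (median 23392346). A median of 87.5% of the counts fell on the 14785 genes tested in both regions. Levels are given in CPM (counts scaled to library size) on the authors' scale, as the lowest, the median and the highest of 48 libraries. A gene without a read in a library is listed at about 0.02 CPM there, since 0.5 of a read was added before the logarithm was taken. Differences are the log2 fold change of CeA over PrL from a fit with mouse and tray (limma, Benjamini-Hochberg adjusted over all genes), with the SE. Genes called over 2-fold passed a test against a fold of 2.

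Some libraries stood apart from the others of their region. The mean correlation with libraries of the same region was lowest, against its spread over libraries, for the CeA of B6 mouse 1 (z-score -2.98) and the PrL of PWK mouse 40 (z-score -2.96), followed by the CeA of PWK mouse 24 (-2.55), the CeA of PWK mouse 48 (-2.13) and the PrL of B6 mouse 25 (-2.04). The CeA library of B6 mouse 1 had the highest summed levels of choroid plexus and ependyma genes (1230 CPM), oligodendrocyte genes (7450 CPM) and meningeal genes (932 CPM) in the CeA, and the lowest of pallial glutamatergic genes (940 CPM). The PrL library of PWK mouse 40 had the highest sum of striatal genes in the PrL (3450 CPM). The PrL libraries of B6 mice 25 and 33 had the lowest sums of pallial genes (2580 and 2780 CPM), where the median was 5040 CPM. Without the 5 mice with a z-score below -2, 387 genes were over 2-fold higher and 223 lower, against 385 and 225 with all mice.

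The labels of the regions were also checked library by library, against the mean profile over all genes of the CeA, of the PrL and of the nucleus accumbens (NAcc), a striatal region punched from the same mice, each without the mouse in question. All 48 PrL libraries correlated best with the PrL, and 40 of 48 CeA libraries with the CeA. The other 8 CeA libraries correlated best with the NAcc, namely those of AJ mice 5, 29 and 37, of B6 mice 1 and 33, of CAST mouse 12, of S129 mouse 46 and of PWK mouse 48. In PWK mouse 48 the NAcc library also went against its label. Its library labelled CeA correlated with the CeA by 0.942 and with the NAcc by 0.958, and its library labelled NAcc by 0.952 and 0.944. Neurod6, a gene of cortical glutamatergic neurons, was at 0.579 CPM in the library labelled CeA of PWK mouse 48 and at 55.5 CPM in that labelled NAcc, where the medians of the other mice were 47.9 and 0.341 CPM. Calcr and the summed striatal genes followed that exchange only in part. Calcr was at 4.79 CPM in the former library and 1.47 CPM in the latter (medians of the other mice 4.25 and 17.0 CPM), and the striatal sum was at 8050 and 6680 CPM (medians of the other mice 2560 and 6780 CPM). Thus Calcr in the former library and the striatal sum in the latter stayed near the medians of their labels. Labels were kept as given. Without PWK mouse 48, 384 genes were over 2-fold higher and 221 lower, and without all 8 mice 359 and 204.

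Most tested genes differed between the regions. Of 14785 genes, 5865 (39.7%) were higher and 5172 (35%) were lower in the CeA than in the PrL, and 3748 were not called. The median SE was 0.0383 and the median log2 fold change over all genes was 0.0179. Over 2-fold differences were found in 385 genes (2.6%) with higher and 225 genes (1.52%) with lower expression in the CeA. In 154 of the 385 genes and in 106 of the 225, all 48 mice showed the same direction. All libraries of one region lay beyond all libraries of the other in 41 genes with higher expression in the CeA (0.277%) and in 24 with lower expression (0.162%).

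**Figure D1:**
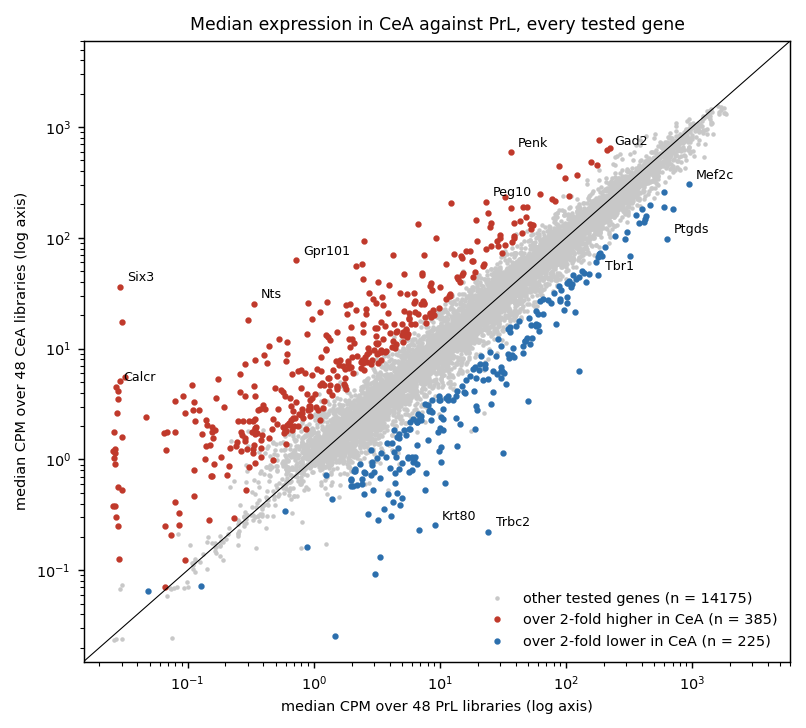
Median expression of each tested gene over the 48 CeA libraries (vertical) against the 48 PrL libraries (horizontal), both in CPM on log axes, with the line of equal levels. Nearly all of the 385 genes over 2-fold higher in the CeA (red) lie above the line and nearly all of the 225 over 2-fold lower (blue) below it, with a few of the least abundant near it.

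Levels of marker genes were set beside the names of the regions. The lists were written with earlier results of these data known, so they give no independent check of the names. Of 21 genes listed for central amygdala neurons, 19 were higher in the CeA, 1 was lower and 1 was not called, and 7 were over 2-fold higher, with a median log2 fold change of 1.07 (39.7% of all tested genes were higher, 35% lower and 2.6% over 2-fold higher). The summed level of the list, led by Wfs1, was 1130, 1810 and 2730 CPM in the CeA, 826, 962 and 1290 CPM in the PrL and 1320, 1880 and 2850 CPM in the NAcc. The CeA sums overlapped with those of both other regions, with a median above that of the PrL and close to that of the NAcc. Prkcd, a protein kinase C that marks a class of CeA neurons, was at 10.4, 46.2 and 132 CPM (lowest, median, highest) in the CeA and at 2.94, 7.25 and 14.8 CPM in the PrL. The groups overlapped and 47 of 48 mice had more in the CeA (log2 fold change of Prkcd 2.64 ± 0.14 SE, adjusted p = 4.86e-22), and the NAcc median of Prkcd was 17.6 CPM. Cyp26b1, an enzyme that degrades retinoic acid, was at 20.4, 134 and 273 CPM in the CeA and at 1.91, 6.75 and 35.3 CPM in the PrL. Cyp26b1 was higher in the CeA of all 48 mice (4.17 ± 0.18, adjusted p = 6.57e-26), and its NAcc median was 14.9 CPM. Neurotensin (Nts), a peptide of CeA neurons, was at 8.20, 25.4 and 48.8 CPM in the CeA and at most 5.57 CPM in the PrL, with no overlap of the groups (5.85 ± 0.23, adjusted p = 4.21e-27). The NAcc median of Nts was 22.6 CPM, close to that of the CeA.

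Other peptides of CeA neurons had smaller fold changes. Somatostatin (Sst), which cortical interneurons also make, had medians of 314 and 225 CPM (0.40 ± 0.04, adjusted p = 1.56e-11). Corticotropin releasing hormone (Crh) had medians of 4.42 and 2.87 CPM and overlapping groups (0.73 ± 0.10, adjusted p = 3.65e-09, higher in the CeA of 39 mice). The gene of the list that was lower was Sema3c, an axon guidance cue (-0.67 ± 0.07), and the gene that was not called was Ezr, a linker of membrane and actin (adjusted p = 0.995). Prkcd and Nts were thus present in every CeA library, with at least 258 and 157 reads.

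GABAergic genes were mostly higher in the CeA. Of 12 GABAergic genes tested, 9 were higher, 1 lower and 2 not called (39.7% and 35% of all tested genes were higher and lower), with a median of 0.762. Gad2, which makes GABA, was at 313, 620 and 985 CPM in the CeA and at 158, 212 and 382 CPM in the PrL, and higher in the CeA of all 48 mice (1.47 ± 0.06, adjusted p = 7.57e-26). Slc32a1, the vesicular GABA transporter, had medians of 225 and 77.2 CPM (1.48 ± 0.08). The factors Dlx6 and Sp9 of the developing subpallium were 4.47-fold and 4.48-fold higher. Dlx1, of the same gene family as Dlx6, went the other way (-0.57 ± 0.12, adjusted p = 2.21e-05).

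**Figure D2:**
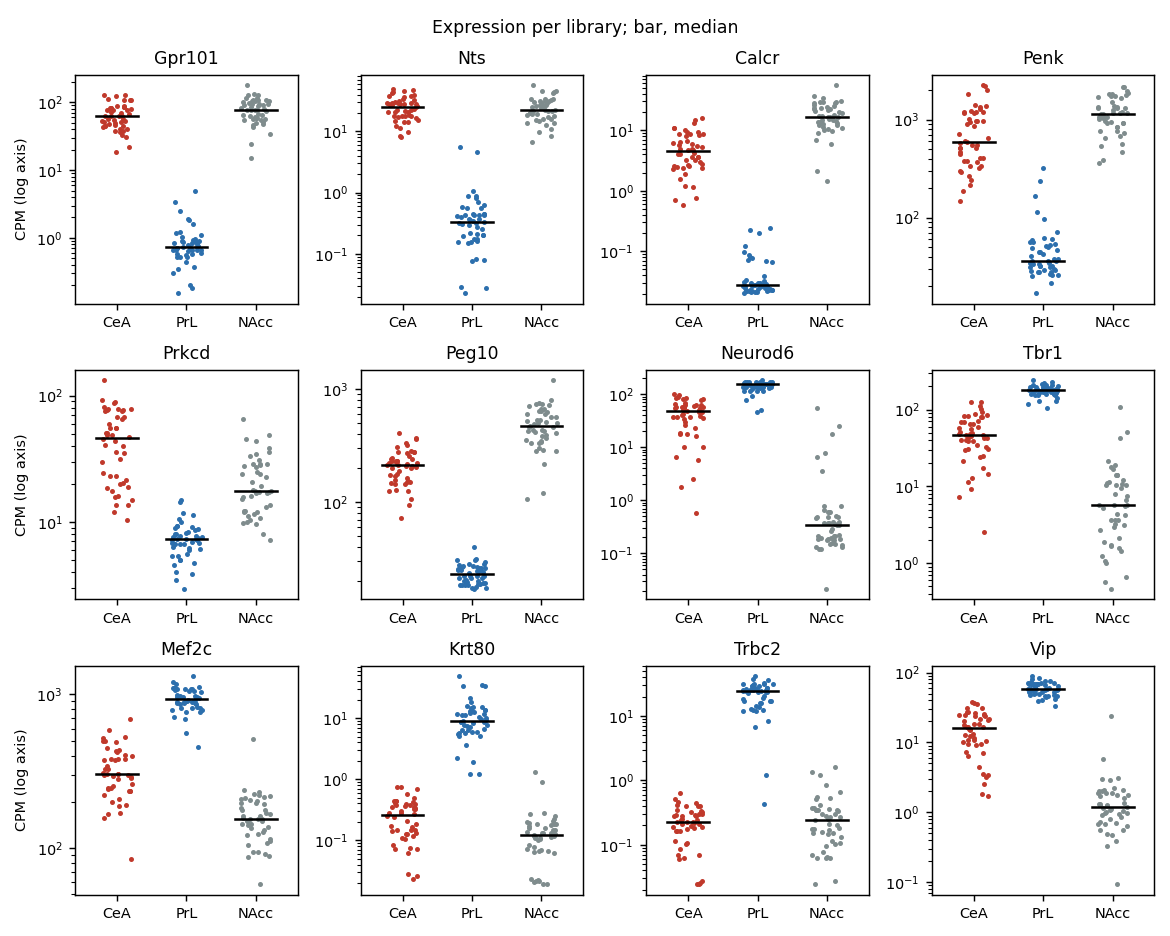
CPM of 12 genes in each library on log axes, with the NAcc for comparison, 48 CeA, 48 PrL and 47 NAcc libraries, and a bar at the median. Gpr101, Nts, Calcr and Peg10 separate the CeA from the PrL without overlap, and Krt80 does so in the opposite direction.

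Striatal genes were higher in the CeA and varied widely among CeA libraries. Of 22 genes listed for striatal projection neurons, 18 were tested, of which 17 were higher and 1 lower in the CeA, and 12 were over 2-fold higher (median 1.98), against 39.7%, 35% and 2.6% of all tested genes. Adora2a, the adenosine receptor of indirect pathway neurons, was at 2.32, 93.6 and 711 CPM in the CeA and at 1.19, 2.52 and 145 CPM in the PrL (4.96 ± 0.36, adjusted p = 2.11e-17). Drd2, the dopamine receptor of the same neurons, was at 6.54, 55.2 and 393 CPM and at 0.938, 2.18 and 92.2 CPM (4.51 ± 0.33). The ranges overlapped, since some CeA libraries were low and the PrL library of PWK mouse 40 was the highest of the PrL for both genes. Penk, the enkephalin precursor, was higher in all 48 mice (medians 595 and 36.6 CPM, 3.94 ± 0.17). The exception of the list was Foxp1, a factor of striatal and cortical neurons, with medians of 72.7 and 110 CPM (-0.43 ± 0.13, adjusted p = 0.00212), a call that was lost with no filter on low counts, without the mice with high choroid plexus genes in the CeA and within trays 1 and 3.

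The summed level of the striatal genes, of which Gnal was the most abundant, was 1020, 2640 and 12000 CPM in the CeA, 854, 900 and 3450 CPM in the PrL and 1570, 6680 and 12000 CPM in the NAcc. The CeA libraries of AJ mice 5 and 29, of B6 mouse 33, of S129 mouse 46 and the library labelled CeA of PWK mouse 48 were at 8050 to 12000 CPM, above the NAcc median, and all 5 were among the 8 libraries that correlated best with the NAcc. Also above that median were the CeA library of AJ mouse 37 (7240 CPM), among the 8 as well, and that of a further AJ mouse, which correlated best with the CeA. By strain, the CeA median was highest in AJ (7160 CPM) and lowest in NOD (1570 CPM). The part of neighbouring striatal tissue in these differences was not tested. Without the 7 mice whose CeA sum was above the NAcc median, 367 genes were over 2-fold higher and 202 lower, and Drd2 (3.85) and Adora2a (4.30) kept their direction.

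Cholinergic genes were all higher in the CeA. All 9 genes of the list passed the test against a fold of 2 (2.6% of all tested genes), with a median of 4.77. Choline acetyltransferase (Chat) was at 0.025, 7.97 and 57.4 CPM in the CeA and at 0.022, 0.340 and 8.04 CPM in the PrL (4.83 ± 0.34, adjusted p = 6.94e-18). The LIM homeodomain factor Lhx8, needed for forebrain cholinergic neurons, had 12 to 814 reads in every CeA library and none in 27 of 48 PrL libraries. Lhx8 was higher in the CeA of all 48 mice (6.42 ± 0.33). The summed level of the list, led by Ecel1, was 25.3, 130 and 475 CPM in the CeA, 4.78, 7.79 and 55.3 CPM in the PrL and 149, 291 and 557 CPM in the NAcc. The highest CeA sums were those of CAST mouse 12 (475 CPM), of the library labelled CeA of PWK mouse 48 (454 CPM) and of B6 mouse 1 (364 CPM), all among the 8 that correlated best with the NAcc. Without PWK mouse 48 the CeA median of the sum was 128 CPM and the highest Chat level 52.7 CPM, and without all 8 mice the log2 fold changes of Chat and Lhx8 were 4.01 and 5.85.

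Genes of neighbouring structures were also higher in the CeA. Of 10 genes listed for the basolateral amygdala, 7 were higher and 3 lower (39.7% and 35% of all tested genes), and 4 were over 2-fold higher (2.6%). The largest was Gpr101, an orphan receptor, at 18.3, 62.6 and 129 CPM in the CeA and at most 4.93 CPM in the PrL (6.21 ± 0.16, adjusted p = 1.97e-34), whose level in the NAcc was a median of 78.4 CPM, so it does not mark the amygdala alone. The peptide Grp and the Wnt agonist Rspo2, both typical of basolateral neurons, were lower in the CeA (-1.39 ± 0.25 and -1.14 ± 0.17). Among 20 genes of hypothalamus and thalamus, 16 were higher, 3 lower and 1 not called, where 39.7% and 35% of all tested genes were higher and lower. Baiap3, a regulator of dense core vesicle traffic, was at 48.2, 207 and 599 CPM against at most 42.1 CPM (3.75 ± 0.15), and Slc17a6, the vesicular glutamate transporter of subcortical neurons, had medians of 42.5 and 14.0 CPM (1.79 ± 0.14, higher in 45 mice). In the NAcc, Baiap3 was at a median of 250 CPM without PWK mouse 48. The summed level of the list had medians of 456 CPM in the CeA and 443 CPM in the NAcc. Orexin (Hcrt), a peptide of the lateral hypothalamus, had no read in 22 CeA and 20 PrL libraries and was not called (adjusted p = 0.701). The hypothalamic peptides Pmch (medians 0.533 and 0.293 CPM, 2.68 ± 0.43) and Avp (medians 0.210 and 0.0734 CPM, 3.21 ± 0.39) were over 2-fold higher. Their highest CeA levels were far above these medians, at 81.65 CPM for Pmch (without PWK mouse 48) and 14.76 CPM for Avp (PWK mouse 24). The part of single libraries in both calls was not tested.

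Genes of cortical glutamatergic neurons were the counterpart in the PrL. Of 18 pallial glutamatergic genes tested, 17 were lower in the CeA, none was higher and 1 was not called, and 8 were over 2-fold lower (median -1.32), where 35% of all tested genes were lower and 1.52% over 2-fold lower. Tbr1, a T-box factor of pallial neurons, was at 2.59, 46.2 and 125 CPM in the CeA and at 104, 178 and 239 CPM in the PrL, and was lower in the CeA of all 48 mice (-2.02 ± 0.14). Neurod6, a bHLH factor of the same neurons, had medians of 47.1 and 152 CPM and was lower in 46 mice (-1.84 ± 0.18). Mef2c, an activity dependent factor, had medians of 304 and 935 CPM (-1.61 ± 0.09). Baiap2, a postsynaptic adaptor, was the gene that did not pass (adjusted p = 0.0991). The summed level, led by Nrgn, was 940, 2630 and 3920 CPM in the CeA and 2580, 5040 and 5910 CPM in the PrL.

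Of 26 genes listed for cortical layers, 15 were lower in the CeA, 8 higher and 3 not called (35% of all tested genes were lower and 39.7% higher), among the lower ones Fezf2 of deep layers (-1.68 ± 0.16) and Cux2 of upper layers (-1.18 ± 0.08). Of 17 genes listed for cortical interneurons, 9 were lower, 7 higher and 1 not called, the share of higher genes being near that of all tested genes. Vasoactive intestinal peptide (Vip) was at 1.73, 16.2 and 38.2 CPM in the CeA and at 33.7, 57.9 and 89.1 CPM in the PrL (-1.93 ± 0.14, lower in all 48 mice), and cholecystokinin (Cck) had medians of 114 and 302 CPM (-1.76 ± 0.17). Parvalbumin (Pvalb) was lower in 40 of 48 mice (-0.73 ± 0.14, not called within tray 3), and Npy was not called (adjusted p = 0.0598). Nkx2-1, a factor of ventral forebrain, had no overlap in the opposite direction (medians 3.76 and 0.091 CPM, 5.12 ± 0.23).

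Promoters of some of these genes held the core letters TAATTA of homeodomain sites. Shown here are 4, since they belong to well measured genes of opposite direction, the 250 bases before the start of Tac1 (the substance P precursor) and Slc17a6, higher in the CeA, and of Mef2c and Tbr1, lower in the CeA, from RefSeq on build GRCm38.p6, all on the + strand, at chr6:7554811-7555060, chr7:51624387-51624636, chr13:83523406-83523655 and chr2:61804203-61804452. RefSeq lists 1 start for Tac1 and Tbr1, 2 for Slc17a6 and 3 for Mef2c, and the start shown is the first whose window holds the motif. The motif is in capitals. It reads the same on both strands, and genes and motif were chosen after the differences were known.
Tac1: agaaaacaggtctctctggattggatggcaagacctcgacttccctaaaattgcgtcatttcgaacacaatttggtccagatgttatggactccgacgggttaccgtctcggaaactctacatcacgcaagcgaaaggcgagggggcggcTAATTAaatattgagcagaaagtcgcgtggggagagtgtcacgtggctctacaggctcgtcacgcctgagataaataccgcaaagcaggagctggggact
Slc17a6: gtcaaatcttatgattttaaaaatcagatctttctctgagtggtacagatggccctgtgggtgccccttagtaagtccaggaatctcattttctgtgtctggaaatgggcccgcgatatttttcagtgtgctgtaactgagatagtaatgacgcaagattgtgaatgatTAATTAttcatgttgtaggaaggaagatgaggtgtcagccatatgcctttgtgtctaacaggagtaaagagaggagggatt
Mef2c: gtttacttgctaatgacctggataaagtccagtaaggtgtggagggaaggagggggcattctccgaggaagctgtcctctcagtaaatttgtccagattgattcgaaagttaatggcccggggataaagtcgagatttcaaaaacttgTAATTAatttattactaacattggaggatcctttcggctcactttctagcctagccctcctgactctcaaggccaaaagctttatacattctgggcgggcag
Tbr1: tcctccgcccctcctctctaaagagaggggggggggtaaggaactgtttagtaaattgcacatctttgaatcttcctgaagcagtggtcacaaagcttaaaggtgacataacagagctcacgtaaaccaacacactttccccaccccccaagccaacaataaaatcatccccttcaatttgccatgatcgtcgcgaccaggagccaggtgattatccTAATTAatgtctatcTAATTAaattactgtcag
Of the tested genes, 11195 had a promoter in the table, and 3.07% of them held the motif in the 250 bases before any listed start. It was held by 13 of 285 genes over 2-fold higher (4.56%) and by 12 of 161 over 2-fold lower (7.45%), and by 5.65% of all genes in the table. These shares describe letters only and were not tested.

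Non-neuronal genes differed between the punches as well. Of 19 oligodendrocyte genes, 17 were higher in the CeA, 1 lower and 1 not called, none over 2-fold (median 0.835, 39.7% higher and 35% lower over all tested genes), and the summed level, led by Cnp, was 735, 1410 and 7450 CPM in the CeA and 644, 1010 and 2340 CPM in the PrL. Astrocyte genes had a median of 0.0825, with 9 of 19 higher, 4 lower and 6 not called (39.7% and 35% of all tested genes). Agt, the angiotensinogen of subcortical astrocytes, was an exception, at 11.0, 37.4 and 170 CPM against 1.90, 3.95 and 8.67 CPM without overlap (3.65 ± 0.16), and Chrdl1, made by cortical astrocytes, went the other way (-2.10 ± 0.14). Microglial genes had a median of 0.0916 (10 of 18 higher, 1 lower, 7 not called, where 39.7% and 35% of all tested genes were higher and lower). Genes of oligodendrocyte precursors were higher in 9 of 11 cases, with 1 lower and 1 not called (median 0.482).

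Genes of surface tissue were higher in the PrL punch, which was taken at the midline. Of 15 meningeal genes, 12 were lower in the CeA, 1 higher and 2 not called, and 5 were over 2-fold lower (35%, 39.7% and, over 2-fold lower, 1.52% of all tested genes). Ptgds, the prostaglandin D synthase of the arachnoid, was at 27.5, 98.0 and 583 CPM in the CeA and at 138, 628 and 1776 CPM in the PrL (-2.62 ± 0.18, lower in all 48 mice), and Slc22a6, an organic anion transporter, had medians of 0.954 and 10.2 CPM (-3.19 ± 0.18). The summed level, led by Ptgds, was 79.7, 178 and 932 CPM in the CeA and 184, 821 and 2080 CPM in the PrL. Genes of vessels were lower in 19 of 21 cases by a median of -0.268, and all 5 blood genes were lower (35% of all tested genes), with the haemoglobin gene Hbb-bs at medians of 26.5 and 56.2 CPM (-1.17 ± 0.09). The part of meninges and blood in other differences was not tested.

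Choroid plexus and ependyma genes were high in a few CeA libraries. All 12 tested genes were called higher and 8 over 2-fold higher (39.7% and 2.6% of all tested genes), but the summed level, led by Kl, was 26.3, 58.1 and 1230 CPM in the CeA, 9.29, 12.6 and 47.9 CPM in the PrL and at most 135 CPM in the NAcc. The highest CeA libraries were those of B6 mouse 1 (1230 CPM), B6 mouse 9 (801 CPM), PWK mouse 24 (778 CPM) and NOD mouse 15 (708 CPM). Kcne2, a potassium channel subunit of the choroid plexus, had no read in 20 CeA and 23 PrL libraries and up to 54.8 CPM in the CeA, with a log2 fold change of 4.20 ± 0.65. The highest Kcne2 levels were those of the CeA of B6 mice 1 and 9 (54.8 and 29.9 CPM). The water channel Aqp1 and the channel Kcnj13 were called higher in the CeA (1.95 ± 0.52 and 2.22 ± 0.52), while 27 and 31 of 48 mice had less there. These calls depended on the fit. Over all mice, Kcnj13 was reversed without the mouse block and with mouse as a random block (both -0.58), with limma-trend (-1.5), edgeR (-0.42) and DESeq2 (-1.91), and Aqp1 was reversed with DESeq2 (-0.24) and not called in the first 4 of these. Kcne2 was not called with DESeq2 or within tray 1. Dynlrb2, a dynein light chain of the list (0.88 on the log2 scale), was not called in any of these 5 fits, without the 5 mice with a z-score below -2 or within trays 2 and 3, and was reversed within tray 1 (-0.031) and without the 10 mice with the highest sums (-0.28). Clic6 and Prlr were present in all CeA libraries, at no less than 3.46 and 1.83 CPM against medians of 0.299 and 0.534 CPM in the PrL, with NAcc medians of 25.6 and 14.2 CPM. Only 1 gene of the list had all CeA libraries above all PrL libraries, so Clic6 and Prlr did not both lie apart from the PrL. Without the 10 mice whose CeA sum was above every NAcc library, Kcne2 was no longer called, Aqp1 and Kcnj13 were lower in the CeA, and the log2 fold changes of Kcne2, Aqp1 and Kcnj13 were 0.68, -1.36 and -1.98, and 329 genes were over 2-fold higher and 228 lower.

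**Figure D3:**
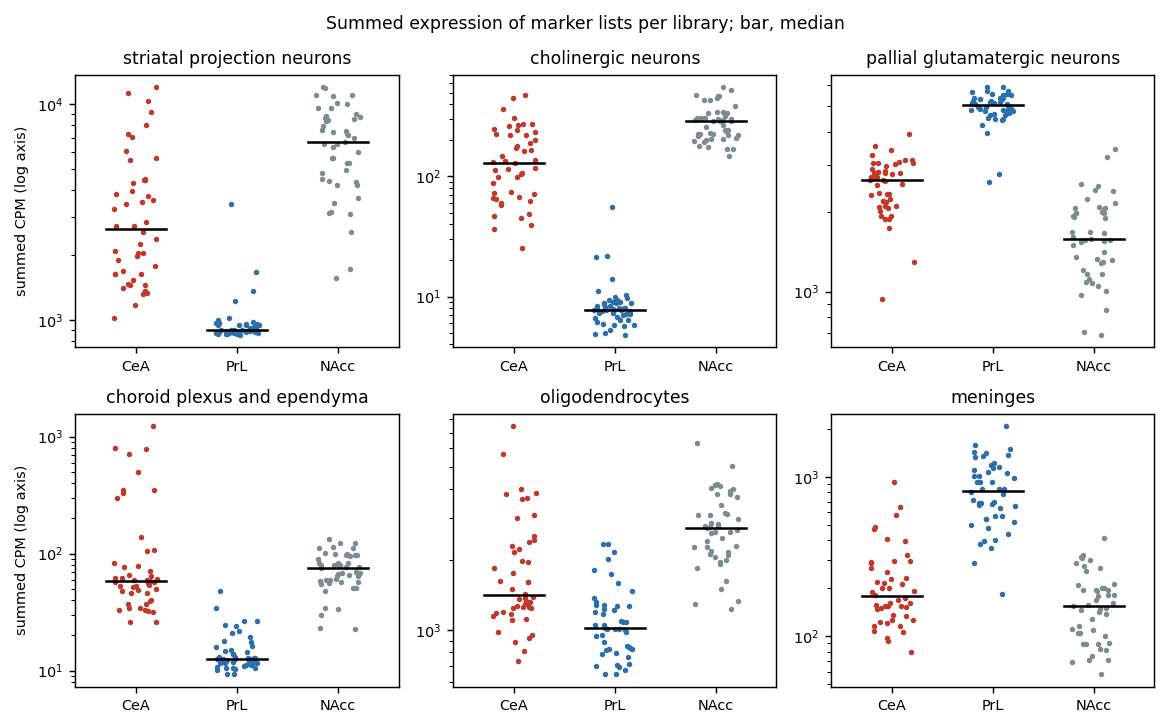
Summed CPM of 6 marker lists in each library on log axes, by region, with a bar at the median. Striatal and choroid plexus genes spread from 1020 to 12000 and from 26.3 to 1230 CPM in the CeA, and pallial and meningeal genes had their highest medians in the PrL.

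**Figure D4:**
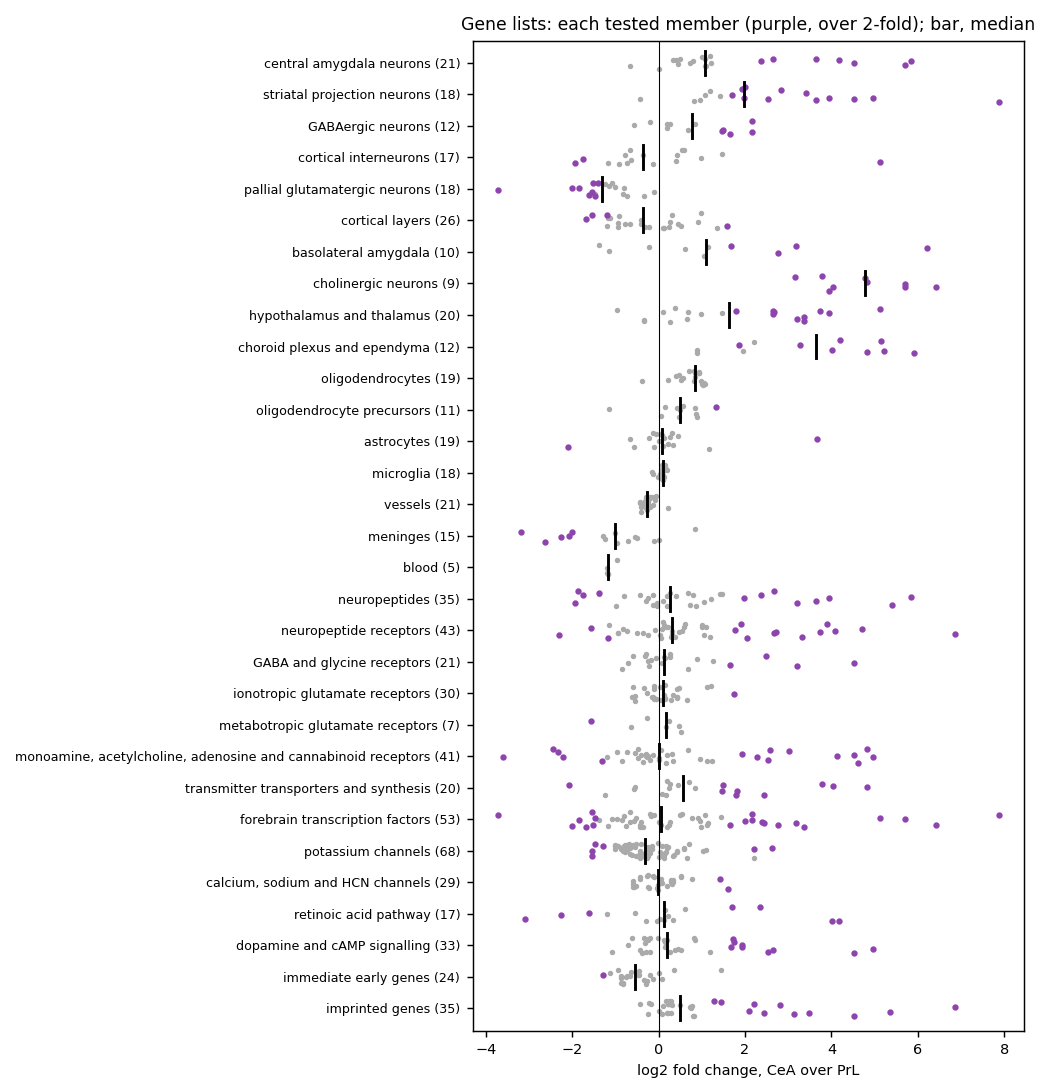
Log2 fold change of CeA over PrL for each tested gene of the 31 lists, with the number of tested genes in brackets, genes over 2-fold in purple and a bar at the median. Medians run from 4.77 for cholinergic genes to -1.32 for pallial glutamatergic genes.

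Of 35 neuropeptide and processing genes, 19 were higher in the CeA, 9 lower and 7 not called, with 8 over 2-fold higher and 4 over 2-fold lower. Of all tested genes, 39.7% were higher, 35% lower, 2.6% over 2-fold higher and 1.52% over 2-fold lower. Beside Nts and Penk, the over 2-fold higher genes were Tac1, Cartpt (2.36 ± 0.15), Gal (3.63 ± 0.37), Avp, Pmch and Ucn3, a ligand of the CRH receptor 2 that had at most 1 read in any PrL library and none in 46 of 48. Gal was at 0.070, 1.75 and 15.6 CPM in the CeA, and 3 mice had less there than in their PrL. Avp and Pmch had low CeA medians, with the highest libraries far above them, as given above. The lower genes were Vip, Cck, Nppc and Adcyap1, the precursor of PACAP (-1.86 ± 0.17, adjusted p = 5.13e-14).

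Among 43 neuropeptide receptors and receptor partners, 26 were higher, 11 lower and 6 not called, where 39.7% and 35% of all tested genes were higher and lower. The calcitonin receptor (Calcr) had the largest difference of the list. Calcr was at 0.586, 4.51 and 15.7 CPM in the CeA, with at least 12 reads in every library, and 37 of 48 PrL libraries had no read and the rest at most 4 (6.87 ± 0.22, adjusted p = 1.57e-30). Receptors for substance P (Tacr1, medians 31.5 and 2.76 CPM, 3.31 ± 0.14), neuropeptide Y (Npy2r, 31.5 and 4.79 CPM, 2.68 ± 0.11) and galanin (Galr1, 1.69 and 0.130 CPM, 4.08 ± 0.18) were higher in the CeA of all 48 mice. Of the opioid receptors, Oprm1 was 4.15-fold and Oprk1 3.41-fold higher (2.06 ± 0.09 and 1.77 ± 0.12). The CRH receptors went apart, with Crhr2 higher (1.90 ± 0.14) and Crhr1 over 2-fold lower in the CeA of all 48 mice (medians 15.8 and 35.7 CPM, -1.17 ± 0.05). Cckbr, the cholecystokinin receptor of cortex, was lower together with its ligand (-1.56 ± 0.09), and Ramp3, a partner of the calcitonin receptor family, was lower (-2.31 ± 0.11).

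Receptors of monoamines, acetylcholine, adenosine and cannabinoids were lower in 20 and higher in 17 of 41 cases, with 4 not called (median 0.00312). Over all tested genes 35% were lower and 39.7% higher, so the share of higher genes was near the background. The shares over 2-fold were 2.6% higher and 1.52% lower over all tested genes. Those over 2-fold higher were 10, among them Htr2c, a serotonin receptor at 117, 185 and 285 CPM in the CeA and 20.2, 36.7 and 155 CPM in the PrL (2.27 ± 0.09), Htr1d (4.14 ± 0.24), the muscarinic receptor Chrm5 (4.62 ± 0.18, no overlap) and Drd3 (4.83 ± 0.22). The 5 over 2-fold lower were the adrenergic receptors Adra1d (-2.44 ± 0.16) and Adra1b, the muscarinic receptor Chrm3 and the nicotinic subunits Chrna5 (-2.33 ± 0.15) and Chrnb3 (-3.60 ± 0.18). Chrnb3 had at most 28 reads in a CeA library and at least 19 in a PrL library. Htr2a, a serotonin receptor of pyramidal neurons, was lower in 45 of 48 mice (-1.20 ± 0.10) without passing the test against 2-fold.

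Of 21 GABA and glycine receptor genes, 12 were higher, 8 lower and 1 not called, the share of lower genes being near that of all tested genes (39.7% higher, 35% lower). The subunits Gabre (medians 7.23 and 0.286 CPM, 4.52 ± 0.15, no overlap), Gabrq (22.3 and 2.16 CPM, 3.21 ± 0.13) and Gabrg1 (78.6 and 23.3 CPM, 1.64 ± 0.06) were over 2-fold higher, as was the glycine receptor subunit Glra1 (2.47 ± 0.20). Of 30 ionotropic glutamate receptor genes and auxiliary subunits, 14 were higher, 10 lower and 6 not called, near the shares of all tested genes (39.7% higher, 35% lower), and Shisa6 alone was over 2-fold higher (1.75 ± 0.11), while the NMDA subunit Grin2a was lower (-0.61 ± 0.06) and the AMPA subunit Gria1 higher (0.65 ± 0.05). The presynaptic receptor Grm2 was over 2-fold lower (-1.56 ± 0.13), and of 7 metabotropic receptors 4 were higher and 3 lower. Of 20 genes of transmitter transport and synthesis, 14 were higher, 4 lower and 2 not called, and among 33 genes of dopamine and cAMP signalling, 18 were higher, 12 lower and 3 not called, with 9 over 2-fold higher and none over 2-fold lower. Of all tested genes, 39.7% were higher and 35% lower, and 2.6% over 2-fold higher.

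Of 68 potassium channel genes, 41 were lower in the CeA, 18 higher and 9 not called (median -0.326), where 35% of all tested genes were lower and 39.7% higher. Among them were Kcnh7 (-1.55 ± 0.07) and the BK channel subunit Kcnmb4 (-1.55 ± 0.05), lower in all 48 mice, and Kcna5 (2.20 ± 0.13) and Kcnj5 (2.63 ± 0.18), higher in all 48. Kcnn3, a small conductance channel, had no overlap (52.4 to 84.4 CPM against 23.1 to 51.0 CPM, 1.11 ± 0.04). Of 29 calcium, sodium and HCN channel genes, 12 were higher, 11 lower and 6 not called (median -0.0275), near the shares of all tested genes. The calcium channel subunit Cacna2d2 (1.61 ± 0.09) and the sodium channel Scn9a (1.41 ± 0.12) were over 2-fold higher.

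Of 53 forebrain transcription factors, 25 were higher, 23 lower and 5 not called, and 13 were over 2-fold higher and 7 over 2-fold lower. Over all tested genes, the shares were 39.7% higher, 35% lower, 2.6% over 2-fold higher and 1.52% over 2-fold lower. The homeodomain factor Six3, needed for striatal neurons, had the largest difference of all lists (7.89 ± 0.48), with 10.2, 36.2 and 89.4 CPM in the CeA and no read in 28 of 48 PrL libraries. The PrL library of PWK mouse 40 had the most Six3 in the PrL, at 16.45 CPM. The antisense transcript Six3os1 followed (7.10 ± 0.41), but the counting is not stated to use strand, so reads of the pair cannot be told apart. Isl1, a LIM homeodomain factor, had no read in 25 PrL libraries (5.70 ± 0.33), and Zfhx3 was at 12.1 to 60.3 CPM against 3.43 to 8.71 CPM (2.44 ± 0.07).

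In the retinoic acid pathway, the synthesizing enzymes Aldh1a2 (-2.27 ± 0.18) and Aldh1a3 (medians 0.390 and 4.81 CPM, -3.10 ± 0.25) were lower in the CeA, and the degrading enzyme Cyp26b1, the binding protein Crabp1 (7.40 and 0.425 CPM, 4.01 ± 0.15, no overlap) and the receptors Rxrg (2.35 ± 0.13) and Rarb (1.70 ± 0.19) were higher. Of 17 genes, 8 were higher, 6 lower and 3 not called, near the shares of all tested genes (39.7% and 35%). Over 2-fold, 4 were higher and 3 lower (2.6% and 1.52% of all tested genes), and not all of the lower ones are named here. A direction by role in the pathway was not tested. Aldh1a2 is also on the meningeal list.

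Immediate early genes, which neuronal activity induces, were lower in the CeA in 19 of 24 cases, with 2 higher and 3 not called (median -0.554), where 35% of all tested genes were lower and 39.7% higher. Npas4 was at 4.01, 8.16 and 35.6 CPM in the CeA and at 6.43, 12.7 and 61.2 CPM in the PrL, and each mouse had less in the CeA although the ranges overlapped (-0.87 ± 0.07, adjusted p = 3.37e-15). Fos was lower in 45 mice (-0.73 ± 0.07), Egr1 in 44 (-0.67 ± 0.08) and Arc in 43 (-0.83 ± 0.10). Ier5 was over 2-fold lower (-1.29 ± 0.08). Nr4a2, which also marks claustral and subplate neurons, was higher in 40 mice (1.43 ± 0.20), and so was Nr4a3 in 29 (0.35 ± 0.12), a call that was lost with mouse as a random block, without S129 and within each tray.

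Imprinted genes, of which one parental copy is silent, were higher in the CeA in 28 of 35 cases, with 4 lower and 3 not called (median 0.499), and 11 were over 2-fold higher and none over 2-fold lower. Over all tested genes 39.7% were higher, 35% lower and 2.6% over 2-fold higher. In 10 of them all CeA libraries were above all PrL libraries, where the share over all genes was 0.277%. These 10 were Calcr, Rtl1, Dlk1, Magel2, Peg10, Zim1, Ddc, Zdbf2, Usp29 and Peg3. Peg10, a gene derived from a retrotransposon, was at 73.2, 212 and 406 CPM in the CeA and at 17.2, 23.1 and 39.9 CPM in the PrL (3.14 ± 0.08, adjusted p = 3.29e-34). Magel2, a ubiquitin ligase partner of the Prader-Willi region, was at 5.04, 20.4 and 41.2 CPM against 0.517, 1.84 and 3.70 CPM (3.47 ± 0.12). Dlk1, a Notch ligand relative, was at 18.5, 57.5 and 117 CPM against 0.211, 2.40 and 6.82 CPM (4.53 ± 0.17). The smallest fold change of the 10 was that of Peg3, a zinc finger gene, at 490 to 964 CPM in the CeA and 311 to 485 CPM in the PrL (0.81 ± 0.04). The summed level of the list, led by Peg3, had medians of 5430 CPM in the CeA, 3770 CPM in the PrL and 6300 CPM in the NAcc. The high sum was thus not particular to the CeA.

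Over strains, the log2 fold change of Peg10 ran from 2.83 in WSB to 3.54 in PWK, for Magel2 from 3.20 in NZO to 3.97 in NOD and for Peg3 from 0.65 in WSB to 0.88 in CAST, and Dlk1 was the only one of the 10 with a strain interaction (3.55 in NZO to 6.04 in S129, adjusted p = 0.0316, and 0.0814 without the 8 mice whose CeA library correlated best with the NAcc). The 4 lower genes were Cdkn1c (-0.44 ± 0.11, not called within tray 2), Peg13 (-0.24 ± 0.02), Begain and Snrpn. Calcr, Dlk1 and Ddc stand on other lists too.

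Promoters of 2 of the 10 genes are shown for the palindrome TGACGTCA, a cAMP response element, in capitals, as the 250 bases before the start on GRCm38.p6 (RefSeq), for Zdbf2 at chr1:63273019-63273268 on the + strand and for Peg3 at chr7:6730420-6730669 on the - strand. RefSeq lists 2 starts for Zdbf2, of which the first with the motif is shown, and 1 for Peg3. The motif was chosen after seeing the genes.
Zdbf2: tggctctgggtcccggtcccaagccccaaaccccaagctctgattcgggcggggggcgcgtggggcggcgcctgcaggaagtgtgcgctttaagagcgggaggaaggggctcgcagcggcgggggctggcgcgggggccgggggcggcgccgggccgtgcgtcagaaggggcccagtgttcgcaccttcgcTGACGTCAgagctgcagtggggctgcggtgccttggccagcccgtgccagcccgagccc
Peg3: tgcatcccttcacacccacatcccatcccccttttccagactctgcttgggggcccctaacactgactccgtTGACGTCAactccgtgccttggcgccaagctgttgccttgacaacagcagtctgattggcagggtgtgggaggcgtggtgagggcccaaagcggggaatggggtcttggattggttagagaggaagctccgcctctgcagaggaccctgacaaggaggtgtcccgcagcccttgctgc
The palindrome was before a listed start of 3 of 28 tested imprinted genes that had a sequence (10.7%), of 3.03% of all tested genes, of 4 of 285 genes over 2-fold higher and of 1 of 161 over 2-fold lower.

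Regardless of the lists, the largest differences with 1 direction in all mice were also described. Higher in the CeA were, beside Six3os1, Calcr, Lhx8, Gpr101, Clic6, Nts, Isl1 and Rtl1, the transcripts 6430628N08Rik (6.39 ± 0.19), A730046J19Rik (5.47 ± 0.16), AI606473 and Sfta3-ps. Among abundant genes, Hap1, a partner of huntingtin, was at 218, 765 and 1238 CPM against 82.7, 181 and 355 CPM (2.01 ± 0.09), and Ahi1, which binds Hap1, at medians of 644 and 224 CPM, higher in all 48 mice (adjusted p = 3.2e-25). Vat1l had no overlap (179 to 595 CPM against 44.7 to 122 CPM, 1.88 ± 0.08), and Sparc, a matrix glycoprotein, rose by 1.37 ± 0.07.

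Lower in the CeA, the largest difference was that of Trbc2, a constant gene of the T cell receptor beta chain, at 0.024, 0.223 and 0.632 CPM in the CeA and at 0.435, 24.2 and 41.8 CPM in the PrL (-6.62 ± 0.15, adjusted p = 6.93e-36). It was lower in the CeA of all 48 mice, and the mean level of Trbc2 in the PrL was 22.2 CPM. The keratin Krt80 had no overlap (at most 0.746 CPM against at least 1.22 CPM, -5.41 ± 0.19), nor did Prss22, a serine protease (-3.30 ± 0.15), and Vxn, a neuronal differentiation gene at 26.3 to 386 CPM against 399 to 865 CPM (-1.85 ± 0.13). Mylk3, Acsm5, 9130024F11Rik, Ovol2, Gm35853, Smim43 and Tcap were 9.48-fold to 25.8-fold lower. Of abundant genes, Nptx1 (-1.41 ± 0.11), Mical2 (-1.34 ± 0.10) and Efhd2 (-1.24 ± 0.06) were lower in all 48 mice.

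The difference between the regions was not the same in all strains for 2657 genes (18%), by a test of the strain by region interaction. Among these genes, the median range between the strains with the smallest and largest effect was 0.738. The count was 5101 with sample quality weights, 1024 without the 8 mice whose CeA library correlated best with the NAcc (3 of them AJ and 2 B6) and 1858 to 2990 under the other alternatives run for it. Sums of some marker lists in the CeA also differed between strains. Median striatal sums were 7160 CPM in AJ and 1570 CPM in NOD, and median oligodendrocyte sums 3370 CPM in B6 and 1040 CPM in WSB. The part of the punched tissue in the interaction was not tested. Of the 610 genes over 2-fold, 190 had an interaction, and in 17 of these the effects took both signs. Within strains, 152 (PWK) to 236 (CAST) genes were over 2-fold higher and 72 (NZO) to 159 (AJ) lower. The smallest adjusted p was that of Fancd2, of DNA crosslink repair, which was lower in the CeA of NOD (medians 2.46 and 12.2 CPM, -2.19 ± 0.22) and higher in the CeA of CAST (10.3 and 4.11 CPM, 1.30 ± 0.21), with an adjusted p of 3.89e-10 for the interaction. The 6 CeA libraries of CAST were all above its 6 PrL libraries, and those of NOD all below.

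Other genes differed in 1 or a few strains. The transcript E430024P14Rik was higher in the CeA in 7 strains, by up to 2.15 ± 0.14 in WSB, and was low in both regions of NZO (medians 0.457 and 0.825 CPM, -0.75 ± 0.28). Slc25a34, a mitochondrial carrier, was higher in CAST (7.59 and 1.89 CPM, 1.91 ± 0.19) and lower in NZO (-0.58 ± 0.16). Adgrg6, an adhesion receptor, was higher in the CeA of PWK (8.71 and 3.25 CPM, 1.24 ± 0.25) and lower in WSB (1.63 and 7.83 CPM, -2.05 ± 0.29). Gypc, a glycophorin, was lower in 7 strains and higher in CAST (3.08 and 1.74 CPM, 0.62 ± 0.28). Ido1, an enzyme of tryptophan breakdown, was higher by 5.42 ± 0.78 in AJ and was at medians of 1.37 and 3.10 CPM in WSB, where the difference was -0.77 ± 0.54. Without the 3 AJ mice whose CeA library correlated best with the NAcc, and the 5 such mice of other strains, the log2 fold change of Ido1 in AJ was 4.01, and the adjusted p of its interaction was 0.0137. Reads of all strains were aligned to 1 reference genome, and the part of sequence differences between strains in these values was not tested.

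**Figure D5:**
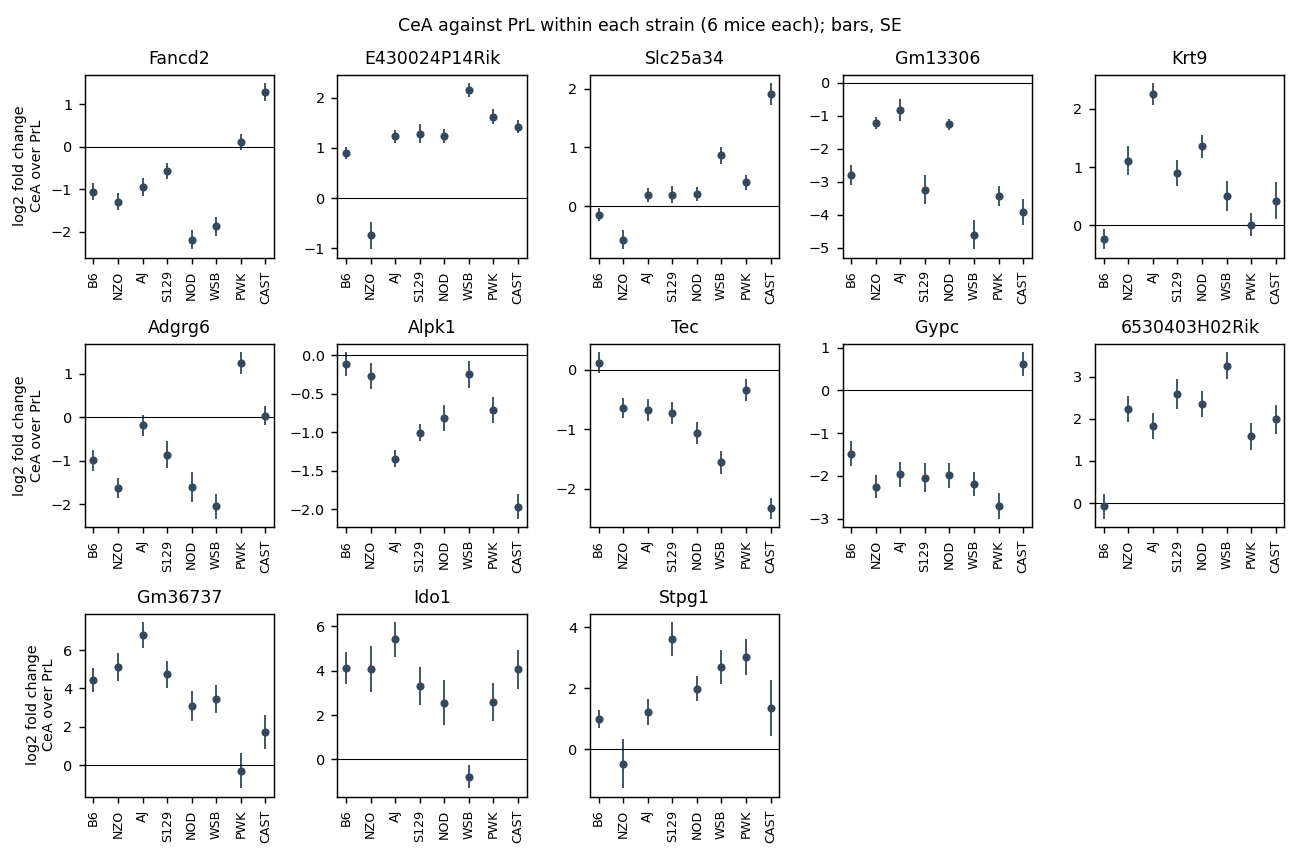
Log2 fold change of CeA over PrL in each strain (6 mice each, bars SE) for 13 genes, the 8 with the smallest adjusted p of the strain by region interaction and 6 of the 17 genes over 2-fold with effects of both signs (E430024P14Rik is in both sets). Fancd2 runs from -2.19 in NOD to 1.30 in CAST, and Gypc is above 0 in CAST alone.

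No gene passed the test of a sex by region interaction (0 of 14785, 0%, limma) and 806 did at an unadjusted p under 0.05. The edgeR quasi-likelihood test also called 0, and the other settings called from 0 to 8. The smallest adjusted p, 0.0699, was that of Adamtsl2, a matrix protein lower in the CeA (-1.41 ± 0.08), followed by vasopressin (Avp, adjusted p = 0.102), whose log2 fold change was larger by 2.94 in males. Avp was at medians of 1.29 CPM in the CeA of males and 0.171 CPM in that of females, and at 0.0734 and 0.0722 CPM in the PrL.

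Within trays, where the regions came from different mice, 224, 238 and 253 genes (trays 1, 2 and 3) were over 2-fold higher and 149, 140 and 148 lower. All 385 higher and all 225 lower genes kept their direction in each tray. Over strains, 366 of the 385 and 220 of the 225 kept their direction in all 8. The 385 and 225 genes were chosen on the same libraries that make up the trays and strains. Their kept direction is therefore not an independent check, and no share over all tested genes is given beside it.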

How the data were processed

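Poly(A) RNA of CeA and PrL punches was measured in 48 mice. The authors trimmed reads with Trimmomatic, aligned them with STAR 2.7.3a to GRCm39 and counted reads per gene (deposited counts, 240 columns, 55414 genes, strand setting not given in the sources used here). Per the labels and methods, they made the deposited log2 CPM values with edgeR 3.38.1 and limma 3.52.2. Genes of low or very high counts were left out by the authors. The values cover 143 libraries, from the first run of trays 1 and 2 and the second of tray 3. The log2 values recomputed from the counts differed by at most 5e-06.

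Counts of 14785 genes were fitted here with voom (limma 3.58.1, edgeR 4.0.16, R 4.3.3, prior count of 0.5) with terms for mouse, tray and region. TREAT tested against a fold of 2, and strain by region and sex by region terms were added. P-values were adjusted over all genes by Benjamini-Hochberg, with a threshold of 0.05. Both regions come from the same animal by the labels, so mouse was the block. Residuals of the same mouse correlated by a median of 0.0257 (over 0.1 in 9 of 48 mice), and those of different mice by 0.00239.

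Named genes were the largest differences in 1 direction in all mice, the most abundant genes over 2-fold, list members and interaction genes. The members and lists were chosen with earlier results of these data known. Second runs, normalizations, filters, edgeR, DESeq2 1.42.0 and left-out strains or mice were tried as alternatives. Intervals of counting error were not used, and the depth is that given with the libraries. Results of some genes are not reported here.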

Additional observations from a re-analysis of the deposited data

Results flagged for a closer look

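Among 16 groups of 6 libraries of 1 strain and region, 1 total count stood apart from the other 5 by Dixon's criterion, a PrL library of NOD at 26445668. Among 104 groups of 6 mice of 1 strain, tested on the difference of CeA and PrL in log2 CPM for 13 interaction genes, 3 held a mouse apart from its strain. These were Alpk1 in B6 mouse 33 (0.645), Ido1 in NZO mouse 42 (7.28) and Ido1 in PWK mouse 40 (-3.25). Chance flags about 5 percent of groups.

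The difference between regions was not the same in all strains for 13 named genes, by the strain by region test of limma. The adjusted p was 3.89e-10 for Fancd2, 4.62e-09 for both E430024P14Rik and Slc25a34, 5.91e-08 for Gm13306, 9.84e-08 for Krt9, 1.46e-07 for both Adgrg6 and Alpk1, 2.03e-07 for Tec and 9.39e-06 for Gypc. It was 7.67e-05 for 6530403H02Rik, 0.000208 for Gm36737, 0.000425 for Ido1 and 0.000519 for Stpg1.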

How the results depend on the processing

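Of the values of single genes under the alternatives, 5138 kept their side of the threshold without a reversal, 43 lost the call, 13 gained it and 11 reversed. A change of direction was counted as a reversal only where the gene was called in at least 1 of the 2 fits, so the 5138 can hold uncalled values that changed direction. Kcnj13 reversed without the replicate block (strain, sex and tray in place of mouse, -0.58), with mouse as a random replicate block (-0.58), with limma-trend (-1.5), with edgeR (-0.42), with DESeq2 (-1.91), within tray 1 (-0.65) and without the mice with high choroid plexus genes (-1.98). Aqp1 reversed with DESeq2 (-0.24) and without those mice (-1.36), and Dynlrb2 within tray 1 (-0.031) and without those mice (-0.28). Why Kcnj13 differs between tools was not tested. The genes that lost the call with all mice and trays were Aqp1 and Dynlrb2 (without the replicate block, with the random block, limma-trend and edgeR), Nr4a3 (random block), Dynlrb2, Kcne2 and Oxt (DESeq2), and Foxp1 and Oxt (no filter). Without the mice with high choroid plexus genes Foxp1 and Kcne2 lost it, without the mice with a z-score below -2 Dynlrb2, and without S129 Nr4a3. Within single trays, which hold fewer libraries, the call was lost by Adgrg6, Aqp1, Folr1, Foxp1, Kcne2 and Nr4a3 in tray 1, by Aqp1, Cdkn1c, Csf1r, Dynlrb2, Kcnj13, Nr4a3, Oxt and Slc25a34 in tray 2, and by those except Cdkn1c and with Aldh1l1, Folr1, Foxp1 and Pvalb in tray 3.

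With a mean CPM of at least 5 (11888 genes tested), 201 genes were over 2-fold higher and 141 lower. With no filter on low counts (39546 genes tested), 7780 were higher and 17803 lower, so that most calls were then in the lower direction. Over 2-fold, 552 were higher and 415 lower. The value of a gene without a read depends on the depth of its library. CeA libraries held a median of 24855569 counts and PrL libraries 23392346. The part of depth in the 17803 lower calls was not tested, so they cannot be read as that many genes reduced in the CeA. Taking fitted changes past 1 (log2) in place of TREAT gave 621 higher and 390 lower. Sample quality weights gave 5101 genes with a strain interaction and 8 with a sex interaction, and the cause was not tested. The strain interaction had 1858 genes without the tray term, 1870 without the mice with high choroid plexus genes and 1982 without those with high striatal genes, within 1.5 times of 2657. Without the 8 mice whose CeA library correlated best with the NAcc, it had 1024 genes and the sex interaction 3, with fewer mice and an uneven loss over strains, and the 13 genes named for the strain interaction all passed it (adjusted p at most 0.0156). The sex interaction had 1 gene without the replicate block, with the random block, with a mean CPM of at least 5, with the second run of tray 2 and with both runs summed, and 2 without the mice with high striatal genes. Without the replicate block, 368 genes were over 2-fold higher and 243 lower, within 1.5 times of the counts with it. Leaving out each strain in turn gave 360 to 386 higher and 200 to 223 lower. No library had a z-score below -3, so leaving such libraries out gave no value, and the settings that left out mice were chosen after seeing the data. Genes at a few reads per library are limited by depth.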
